A study of Mus musculus with 12 samples.

Results

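The regions described are the H3K27ac peaks of mouse embryonic stem cells (mESCs) that carried Ctr9 and had no H3K27ac counterpart in fibroblasts. A region was taken when its mESC H3K27ac peak shared 1 bp or more with an mESC Ctr9 peak and none with an H3K27ac peak of NIH3T3 cells, so the members were chosen by H3K27ac and Ctr9 peaks in mESCs and by the absence of an H3K27ac peak in NIH3T3 cells. Of 19417 mESC H3K27ac peaks, 2148 met the rule. The other mESC-only peaks, without Ctr9, numbered 8117, and the peaks found in both lines numbered 2331 with mESC Ctr9 and 6821 without it. Members within 1 kb of each other formed 1606 loci, of which 1171 held a single member, 349 held 2, 67 held 3, 17 held 4 and 2 held 5.

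The mESCs were of the E14 line (ES-E14) and the fibroblasts were NIH-3T3 cells, an established line from mouse embryos, and both were grown in the same serum medium with LIF. Ctr9 was fused to GFP by a knock-in at its own gene in both lines and was pulled down through the tag with an anti-GFP antibody, as was NELFA, tagged with EGFP, in mESCs. H3K27ac was profiled in both lines, and RNA polymerase II (RNAPII) phosphorylated at Ser5 (Ser5p) or Ser2 (Ser2p) of its tail in mESCs, with 1 ChIP-seq library for each factor and line and 1 RNA-seq library for each line. No value therefore has a replicate or a test over samples, and the 95% intervals given beside shares (exact Clopper-Pearson) and medians (exact order statistic) cover counting error within a library only and treat neighbouring peaks as independent. The study's methods give a target number of reads per sample, but the depth reached behind the peak lists is unknown. The RNA-seq estimated counts summed to 26400407 in mESCs and 28849497 in NIH3T3 cells.

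Ctr9 is a core subunit of the polymerase-associated factor 1 complex (Paf1C), which travels with RNAPII and acts in pausing and elongation. H3K27ac, acetylation of lysine 27 of histone H3, marks active promoters and enhancers. NELFA belongs to the negative elongation factor that holds RNAPII shortly after initiation. Ser5p marks initiating and paused RNAPII, and Ser2p marks RNAPII in productive elongation. In mESCs, enhancers bound by Pou5f1, Sox2 and Nanog are known to drive the genes of pluripotency.

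The label of the cells was checked against marker genes by their TPM, the kallisto estimate of transcript abundance scaled to the same total in each library and corrected for length, with the highest transcript standing for each gene. All 8 mESC markers were above 1 TPM in mESCs and summed to 6607 TPM, against 27.2 TPM in NIH3T3 cells, where 1 of them, Klf4, passed 1 TPM. The 8 fibroblast markers summed to 4349 TPM in NIH3T3 cells and to 173 TPM in mESCs, of which Vim, an intermediate filament gene, gave 162 TPM. Other cells that an mESC culture can hold left little signal. The 5 primitive endoderm markers summed to 3.51 TPM (Gata4 was the highest at 2.21 TPM), the 3 primed epiblast markers to 8.95 TPM (Otx2 was the highest at 7.30 TPM), and the 2 mesoderm and 2 2-cell-like markers to 0.183 and 0.0842 TPM, with Zscan4c at 0.

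The regions printed here are examples of member sequences. They do not show how common a motif is in members, and the last pair was picked for an octamer, found in 0.653% of members. They were read from RefSeq GRCm38.p6, which matches the mm10 build of the peak lists on the main chromosomes, on the forward strand, 5′ to 3′, with 100 bases on each side of the H3K27ac summit or, for the last pair, of the motif, and matches to the searched motifs stand in capitals. The first is the member with the highest H3K27ac fold enrichment, between genes on chromosome 12 at chr12:59040111-59040311, and it holds none of the searched motifs in this window, although an octamer lies farther out within the 150 bp used for the counts below. The next, 19.6 kb from the start of Tgif1, carried Ser5p, Ser2p and NELFA together, at chr17:70873050-70873250, and holds an AP-1 motif. The members near Slc25a12 and Zc3h11a and another near Tgif1 also carried all of these factors. They hold no searched motif in such a window and are not printed. A pair of members lies upstream of Pou5f1, which encodes the pluripotency factor Oct4, at chr17:35503512-35503712 and chr17:35504500-35504700. The pair holds matches to the word searched for AP-1 (TGANTCA, where N is any base), with A or T at N. The one nearer to the gene also holds a GC box and a TATA motif. The last ones are the members near genes of the core and naive pluripotency list that hold an octamer, the motif of Pou-domain factors, here read on the reverse strand. They lie beyond the end of Klf5 at chr14:99340164-99340364 and upstream of Tdgf1 at chr9:110947896-110948096.
Trappc6b member: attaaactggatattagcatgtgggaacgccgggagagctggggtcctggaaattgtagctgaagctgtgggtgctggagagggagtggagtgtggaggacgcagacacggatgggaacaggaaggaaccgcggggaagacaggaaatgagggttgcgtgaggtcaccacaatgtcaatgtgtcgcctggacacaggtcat
Tgif1 member: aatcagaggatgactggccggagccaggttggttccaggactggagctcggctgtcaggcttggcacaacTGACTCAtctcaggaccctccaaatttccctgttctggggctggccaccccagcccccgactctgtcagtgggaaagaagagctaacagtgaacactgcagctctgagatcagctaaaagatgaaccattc
Pou5f1 far member: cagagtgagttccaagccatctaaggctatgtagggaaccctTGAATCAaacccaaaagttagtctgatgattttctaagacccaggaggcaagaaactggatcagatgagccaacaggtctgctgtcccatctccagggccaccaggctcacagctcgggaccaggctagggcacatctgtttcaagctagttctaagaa
Pou5f1 near member: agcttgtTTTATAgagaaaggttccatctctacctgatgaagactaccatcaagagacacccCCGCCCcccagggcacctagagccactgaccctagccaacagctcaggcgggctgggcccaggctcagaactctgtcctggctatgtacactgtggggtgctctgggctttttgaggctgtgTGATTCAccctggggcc
Klf5 member: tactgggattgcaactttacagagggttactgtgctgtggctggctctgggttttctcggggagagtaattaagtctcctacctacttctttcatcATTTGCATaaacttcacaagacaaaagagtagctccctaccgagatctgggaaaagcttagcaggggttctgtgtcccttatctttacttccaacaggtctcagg
Tdgf1 member: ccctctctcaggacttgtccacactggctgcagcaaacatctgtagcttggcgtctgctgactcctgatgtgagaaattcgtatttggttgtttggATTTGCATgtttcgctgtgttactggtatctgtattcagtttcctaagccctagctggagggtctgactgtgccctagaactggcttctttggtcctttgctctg

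Most members lay away from the starts of protein-coding genes. A single start was used for each gene, its outermost annotated 5′ end. Members at starts of other transcripts of a gene can therefore be counted as exon or intron. Gene starts (a summit no more than 1 kb from the start of any protein-coding gene) held 142 members (6.61%, 95% interval 5.60% to 7.75%), against a background of 40.0% of all mESC H3K27ac peaks. The share was 5.43% in mESC-only peaks without Ctr9, 68.8% in peaks of both lines with Ctr9 and 81.8% in those without. Of the remaining members, 879 (40.9%) lay in introns, 171 (7.96%) in exons and 956 (44.5%) between protein-coding genes. The share of members at gene starts was 4.24% with a window of 500 bp, 10.7% with 2 kb and 11.2% with all annotated genes. No background was computed for these settings. The summits of members were a median of 19101 bp from the nearest start, and those of mESC-only peaks without Ctr9 a median of 46396 bp. Of the 956 members between protein-coding genes, 143 (15.0%, 12.8% to 17.4%) overlapped an annotated long non-coding RNA gene, an interval that holds the 13.4% of all mESC H3K27ac peaks in that place. The share was 11.3% of mESC-only peaks without Ctr9, 29.0% of peaks of both lines with Ctr9 and 23.5% of those without.

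**Figure D1:**
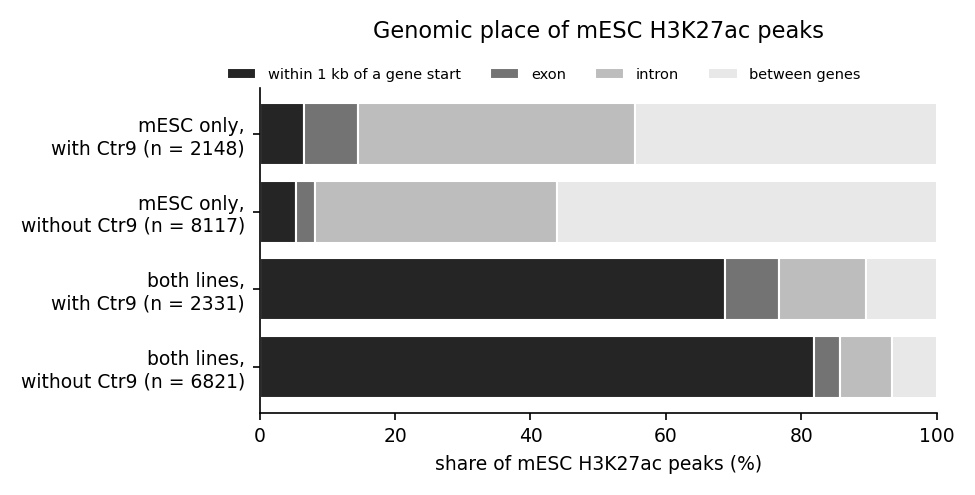
Share of mESC H3K27ac peaks (x axis, %) within 1 kb of a gene start, in exons, in introns and between protein-coding genes, for the 4 classes of peaks. Members have 6.61% at gene starts, close to the 5.43% of the other mESC-only peaks, and peaks of both lines have 68.8% and 81.8%.

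Members were spread over all autosomes and the X chromosome. By chromosome, they made up from 5.86% (39 of 666 peaks on X) to 14.9% (113 of 757 peaks on chromosome 15) of the mESC H3K27ac peaks. No member lay on Y, which held 5 H3K27ac peaks, and 3 members lay on unplaced sequences, which have no nearest gene here and are counted as between genes.

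The values that chose the members are given as a description. The H3K27ac fold enrichment of members, the pileup at the summit over the local background, had a median of 3.28 (3.23 to 3.33) and ran from 1.75 to 24.1, with 7 members at 10 or more. The medians were 3.69 for mESC-only peaks without Ctr9, 4.92 for peaks of both lines with Ctr9 and 4.66 for those without. Members had a median width of 426 bp (415 to 437) and reached 2121 bp, with 130 wider than 1 kb, and mESC-only peaks without Ctr9 had a median width of 358 bp. The median −log10 q was 13.0 in members and 10.2 in mESC-only peaks without Ctr9, so members had lower fold enrichments at their summits and still smaller q-values.

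The widest Ctr9 peak over a member was wider than the member itself in 1537 of 2148 cases (71.6%), with a median width of 822 bp (784 to 861). The strongest Ctr9 peak over each member had a median fold enrichment of 4.51 (4.40 to 4.60). The members met 1970 of the 44748 Ctr9 peaks of mESCs, 945 members (44.0%) lay wholly inside Ctr9 peaks, and 181 met a Ctr9 peak longer than 5 kb. A Ctr9 summit fell inside 1311 members (61.0%), and the H3K27ac and Ctr9 summits were a median of 198 bp apart (181 to 214). Across the 2148 members, the fold enrichments of H3K27ac and Ctr9 had a Spearman correlation of −0.053, over peaks that share the same libraries. The overlap with Ctr9 was 50 bp or less in 37 members. These had a median H3K27ac fold enrichment of 3.05 and held Ser5p in 2 cases (5.41%), against 38.4% of the 2111 other members. Just outside the rule, 177 mESC-only peaks had a Ctr9 peak at a gap of up to 200 bp, with a median fold enrichment of 3.24 and Ser5p at 18 of them (10.2%). On the side of NIH3T3 cells, 37 members had an NIH3T3 H3K27ac peak at a gap of up to 200 bp, and 1341 had none within 10 kb.

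RNAPII Ser5p peaks, the longest of the RNAPII and NELFA lists with 4490 peaks against 1980 for NELFA and 1675 for Ser2p, overlapped more members than the others. A Ser5p peak overlapped 813 members (37.8%, 35.8% to 39.9%), against a background of 15.0% of all mESC H3K27ac peaks. The share was 140 of 8117 (1.72%, 1.45% to 2.03%) in mESC-only peaks without Ctr9, 53.8% in peaks of both lines with Ctr9 and 10.3% in those without. Per the study's text, Ser5p was profiled in the NELFA-tagged mESCs, and which cells were used for H3K27ac and Ser2p is not given in the sources used here. Differences between the tagged lines cannot be told apart from differences between the factors. At members, the Ser5p peaks had a median fold enrichment of 5.12, against 4.31 at the 140 mESC-only peaks without Ctr9.

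Ser2p and NELFA were present at smaller numbers of members. Ser2p peaks overlapped 119 members (5.54%, 4.61% to 6.59%; background 2.25%) and none of the 8117 mESC-only peaks without Ctr9, for which the interval reaches 0.0454%. In peaks of both lines with Ctr9 the share was higher than in members, at 314 of 2331 (13.5%, 12.1% to 14.9%). NELFA peaks overlapped 160 members (7.45%, 6.37% to 8.64%; background 9.68%), 0.554% of mESC-only peaks without Ctr9 and 30.9% of peaks of both lines with Ctr9. The backgrounds mix peaks at gene starts, which are 40.0% of all mESC H3K27ac peaks and few of the members, with peaks farther away, so both are given apart. Ctr9 of NIH3T3 cells overlapped 103 members (4.80%, 3.93% to 5.79%; background 12.8%), 0.591% of mESC-only peaks without Ctr9 and 54.2% of peaks of both lines with mESC Ctr9.

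Apart, the shares with Ser5p and Ser2p were above the background on both sides of the 1 kb limit. Over 1 kb from gene starts, Ser5p was found at 738 of 2006 members (36.8%, 34.7% to 38.9%; background 11.2%) and at 105 of 7676 mESC-only peaks without Ctr9 (1.37%). At gene starts, it was found at 75 of 142 members (52.8%, 44.3% to 61.2%; background 20.6%) and at 35 of 441 mESC-only peaks without Ctr9 (7.94%). Ser2p was found at 10 members at gene starts (7.04%, 3.43% to 12.6%; background 3.26%) and at 109 members farther away (5.43%, 4.48% to 6.52%; background 1.57%), as against 15.1% and 9.89% (7.82% to 12.3%) of peaks of both lines with Ctr9. For NELFA, the order against the background differed from that of all places pooled. NELFA was found at 129 members over 1 kb from gene starts (6.43%, 5.40% to 7.59%; background 3.23%) and at 31 members at gene starts (21.8%, 15.3% to 29.5%; background 19.3%), where the interval holds the background. In peaks of both lines over 1 kb from gene starts, NELFA was found at 138 of 728 with Ctr9 and 85 of 1239 without. Ser5p was found at 360 and 104 of these. Among mESC-only peaks without Ctr9 in that place, NELFA was found at only 24 of 7676. At gene starts, peaks of both lines held NELFA in 36.4% with Ctr9 and 15.6% without, and Ser5p in 55.7% and 10.8%. NIH3T3 Ctr9 was found at 15 members at gene starts (10.6%; background 23.7%) and at 88 farther away (4.39%; background 5.55%). Among peaks with an H3K27ac −log10 q of at least 20, Ser5p was found at 372 of 704 members (52.8%) and at 59 of 1513 mESC-only peaks without Ctr9 (3.90%). Among weaker peaks, the shares were 30.5% and 1.23%.

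**Figure D2:**
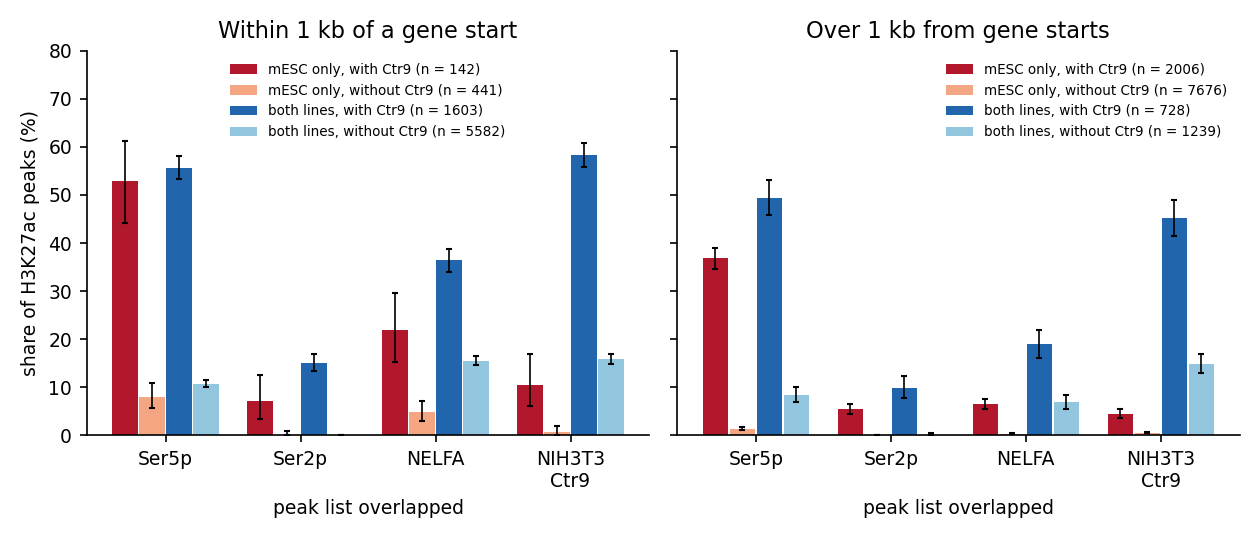
Share of H3K27ac peaks (y axis, %) that overlap a peak of RNAPII Ser5p, RNAPII Ser2p, NELFA or NIH3T3 Ctr9 (x axis), for the 4 classes of mESC H3K27ac peaks within 1 kb of gene starts (left) and farther away (right), with 95% exact Clopper-Pearson intervals. Over 1 kb from gene starts, 36.8% of members and 1.37% of mESC-only peaks without Ctr9 hold Ser5p.

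The factors occurred in combinations. Of the 2148 members, 1313 (61.1%) held none of Ser5p, Ser2p and NELFA, 569 (26.5%) held Ser5p alone, 136 held Ser5p with NELFA, 96 held Ser5p with Ser2p and 12 held all of them. NELFA was found at 148 of the 813 members with Ser5p (18.2%) and at 12 of the 1335 without it (0.899%). Ser2p was found at 108 (13.3%) and 11 (0.824%) of these. Members with Ser5p had a median Ctr9 fold enrichment of 6.17 and a median Ctr9 width of 1467 bp, against 3.94 and 556 bp for members without Ser5p. Their H3K27ac peaks had median fold enrichments of 3.37 and 3.25, median widths of 490 and 388 bp and a median −log10 q of 18.0 and 10.9.

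When members were ranked by Ctr9 fold enrichment and divided into 5 groups of equal size, the share with Ser5p was 15.1% in the lowest group, then 17.5%, 31.6% and 55.2%, and 69.8% (65.2% to 74.1%) in the highest. The share with Ser2p was 0% in the lowest group and 24.4% in the highest, and the share with NELFA was 3.49% and 14.2%. Ranked by H3K27ac fold enrichment instead, the share with Ser5p was 36.3% in the lowest and 44.4% in the highest group, and that with NELFA 4.42% and 15.8%. Ranked by the other H3K27ac measures, the share with Ser5p was 22.6% and 57.9% for −log10 q and 23.7% and 54.9% for width. NELFA stood at 1.63% and 19.1% for −log10 q and at 2.56% and 12.6% for width. The width of the Ctr9 peak was not held fixed in this order, and its part in the result was not tested.

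**Figure D3:**
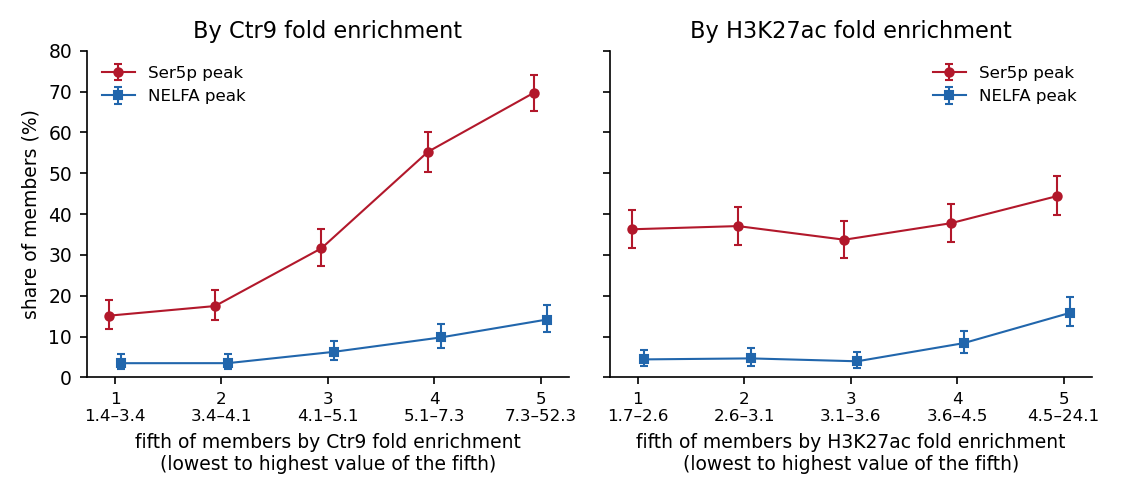
Share of members (y axis, %) with a Ser5p or NELFA peak in 5 groups of equal size ranked by Ctr9 (left) or H3K27ac (right) fold enrichment (x axis, with the range of each group), with 95% exact Clopper-Pearson intervals. Ser5p is found in 15.1% of the group with the weakest Ctr9 and in 69.8% of that with the strongest.

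The member with the highest H3K27ac fold enrichment (24.1, chr12:59040003-59040412) lay wholly inside a Ctr9 peak of 1745 bp and overlapped Gm22973, a gene annotated as a small nuclear RNA (snRNA). Its nearest coding gene was Trappc6b, a subunit of a vesicle tethering complex, with the start 21.3 kb away. It carried Ser5p with a fold enrichment of 25.8, NELFA with 17.7 and Ser2p with 3.08. The next 9 members by H3K27ac fold enrichment ranged from 9.24 to 12.6. Of these, 6 carried no Ser5p, NELFA or Ser2p, and their Ctr9 fold enrichment was 4.74 or less in 8 of 9. One of them lay on an unplaced sequence, and the member in an intron of Khdrbs2 lay in sequence that was 100% repeat-masked around the summit. Besides Trappc6b, Ser5p was present at the members in an intron of Grik3, a glutamate receptor gene, near Zfp945, and at the start of Rpp25. Rpp25 encodes a subunit of ribonuclease P, and NELFA was present there too. The Grik3 member overlapped Ftl2-ps, annotated as a processed pseudogene. It carried Ctr9 in NIH3T3 cells as well, with a fold enrichment of 9.93 against 6.72 in mESCs.

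The highest Ctr9 fold enrichments were at a cluster of miRNA genes. The top 3 members lay in a single Ctr9 peak of 6200 bp with a fold enrichment of 52.3 on chromosome 7, at chr7:3217988-3218420, chr7:3218718-3218946 and chr7:3219235-3219444. The middle one overlapped Mir291a, and the last one Mir292 and Mir292b, which belong to a family of miRNAs abundant in mESCs. Nlrp12 was the nearest coding gene, with 0.04 TPM in mESCs and 0.02 TPM in NIH3T3 cells. The H3K27ac fold enrichments of these 3 members were only 2.23, 1.98 and 1.91, while Ser5p reached 30.4 at each, Ser2p 27.6 at the latter pair, and NELFA 10.8 at the first. The other 2 of the top 5 lay in a Ctr9 peak of 7269 bp (fold enrichment 43.2) between genes on chromosome 16, with the start of Trp63 160507 and 160039 bp away. Both carried Ser5p (9.69) and Ser2p (15.4), and NELFA (6.02) was present at the nearer one.

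Outside gene starts, the 5 members of highest H3K27ac fold enrichment that carried Ser5p, NELFA and Ser2p together were the one near Trappc6b, one in an intron of Slc25a12, one between genes near Zc3h11a and 2 near Tgif1. Slc25a12 encodes a mitochondrial carrier, and Tgif1 a homeobox repressor. The H3K27ac fold enrichment was 6.03 at the Slc25a12 member, 5.87 at the Zc3h11a member and 4.17 and 4.11 at the Tgif1 members, and Ctr9 reached 17.7, 18.6, 10.9 and 27.2. All 5 lay wholly inside their Ctr9 peaks, which were 1745 to 4771 bp wide.

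The widest members were a different set. The member on the X chromosome of 2121 bp, the widest of all, lay inside Tsix, the antisense partner of Xist, and in an intron of Gm26992. Members of 1919, 1881 and 1862 bp lay in introns of Chmp4b, Ppp2r5c and Cradd. None of these 4 carried NELFA or Ser2p, and Ser5p was present at all but the one in Chmp4b.

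Sall1, a zinc finger gene expressed in mESCs, had the most members of all genes (13 at 7 loci). The gene lies on the reverse strand at chr8:89027235-89044162. Members stood from 139 bp to 94402 bp from its start, 4 of them in the gene body, with H3K27ac fold enrichments of 2.16 to 6.69. Ser5p was present at 11, NELFA at 2 and Ser2p at 2. NIH3T3 cells had no Ctr9 or H3K27ac peak in the plotted region. Sall1 mRNA stood at 105.6 TPM in mESCs and 0 TPM in NIH3T3 cells.

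**Figure D4:**
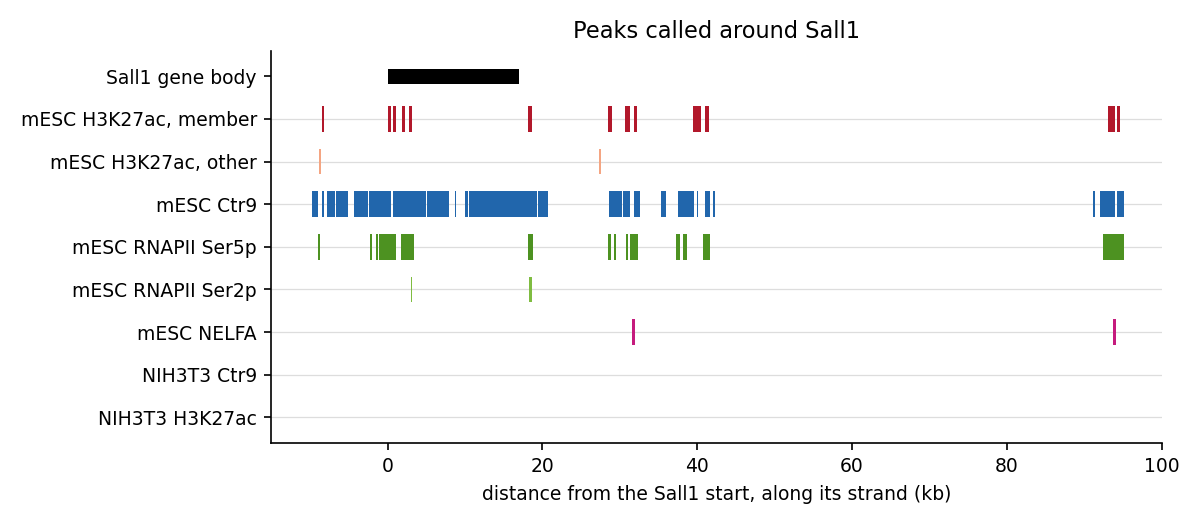
Peaks of 8 tracks around Sall1 by distance from its start along its strand (x axis, kb), with the gene body in black. The 13 members fall on Ctr9 peaks upstream of the gene, inside it and downstream of it, and the 2 NIH3T3 tracks are empty.

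The 2145 placed members were nearest to 1182 protein-coding genes, by gene body or else by start, of which 671 had 1 member, 291 had 2, 220 had 3 or more and 54 had 5 or more. After Sall1 came Klf9 (12 members), Etl4 (11), Zfp704 (10), Klf5, Sik1 and Smarcad1 (9 each), and Tgif1, Tns3 and Esrrb (8 each). All 11 members at Etl4 lay in the gene body, as did those at Tns3 and Esrrb. All 8 members at Tgif1 carried Ser5p, and 5 of 12 did at Klf9. The longest run of members within 1 kb of each other had 5 of them in 4011 bp upstream of Smarcad1, a chromatin remodeler, and 5 in 3476 bp upstream of Epha2, a receptor for ephrins.

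Super enhancers are long clusters of enhancers at genes of cell identity, and their coordinates were taken from a list that accompanies the study. That list names no genome build. Of 225 listed transcripts found in RefSeq GRCm38.p6, 194 (86.2%) belonged to a gene within 50 kb of their super enhancer on that build, and mm10 was used. Members overlapped them in 321 cases (14.9%, 13.5% to 16.5%; background 2.80%), against 1.90% of mESC-only peaks without Ctr9, 2.19% of peaks of both lines with Ctr9 and 0.264% of those without. A member was present in 131 super enhancers, of the 200 that held any mESC H3K27ac peak. The share was 26.3% of members with Ser5p and 8.01% of those without.

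The core and naive pluripotency list held 20 genes, and 18 of them were the nearest gene of at least 1 member, 64 members in all, while 5.39% of all 21918 protein-coding genes were. Dppa4 and Utf1 had none. Pou5f1 had 2 members, 2406 and 1418 bp from its start, with H3K27ac fold enrichments of 2.83 and 3.20, both in a Ctr9 peak of 2225 bp with a fold enrichment of 6.72. Both carried Ser5p (10.7), and NELFA (4.27) was present at the farther one. These are the pair whose sequences are printed above. Each holds a match to the word searched for AP-1 (TGANTCA), read as TGAATCA in the farther member and TGATTCA in the nearer.

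Sox2, which encodes the partner of Oct4 on DNA, had 5 members, 2 of them within 1 kb of its start and 2 over 107 kb away, and all carried Ser5p. The Ctr9 peak over the gene was 8814 bp wide with a fold enrichment of 18.2. Nanog had 3 members, with H3K27ac fold enrichments of 3.95, 3.19 and 2.75. The last, 8664 bp from the start, lay in a Ctr9 peak of 3848 bp with a fold enrichment of 13.1 and carried Ser5p (9.17) and Ser2p (8.20). Esrrb, a nuclear receptor of naive pluripotency, had 8 members 109390 to 142815 bp from the start of the annotated gene, all inside the gene, and 5 of these shared one Ctr9 peak of 29146 bp.

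Zfp42 had 5 members, including the one of highest H3K27ac fold enrichment on the list (5.85, 14362 bp from the start), which carried Ctr9 (3.31) and neither RNAPII form. Klf5, a zinc finger factor, had 9 members and Klf4 had 4, all of the latter over 54 kb from the start. Prdm14 had 5, the nearest at 23177 bp. Tdgf1, a co-receptor of Nodal, had 1 member, 1856 bp from its start, with Ser5p (9.33) and NELFA (3.18). In mRNA, all 20 genes were at least 2-fold higher in mESCs, with a median log2 ratio of 7.04, while 13.5% of all protein-coding genes were. These genes are known for their expression in mESCs. Their starts carried NIH3T3 H3K27ac in 4 cases (Klf2, Klf4, Klf5 and Tbx3), while 44.7% of all protein-coding genes did.

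The counts of the other lists are read against the 5.39% of all protein-coding genes with a member. Of 22 ligands, receptors and feedback genes, 7 had a member (16 members), namely Nodal, Lefty1, Fgf4, Spry2, Spry4, Etv5 and Lifr. Lefty1, an inhibitor of Nodal, had 3, all with Ser5p, with H3K27ac fold enrichments up to 5.58. Fgf4, the main Fgf of mESCs, had 2 with no Ser5p. The other 15 had none, among them Bmp4 and Lefty2, both over 6 on the log2 ratio scale. Of 12 chromatin and RNA regulators, 8 had a member (24 members). Trim71, an RNA-binding protein, had 6, and Mybl2, a cell cycle factor, had 5. Tet1 and Tet2, which oxidise methylated cytosine, had 3 and 2, and Ser5p was present at each of these. None of the 15 listed genes of Paf1C, NELF, P-TEFb and the elongation factor DSIF (Supt5 and Supt4a) had a member, which is near that share. Of these 15 genes, 14 had NIH3T3 H3K27ac at the start (44.7% of all protein-coding genes did). Of 12 fibroblast genes, 1 had a member (8.33%, also near that share), Fn1 (fibronectin), at 7553 bp from its start with a H3K27ac fold enrichment of 3.07 and a Ctr9 fold enrichment of 2.64.

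The genes nearest to members were more often higher in mESCs than protein-coding genes taken as a whole. Of 1181 with RNA values, 533 (45.1%, 42.3% to 48.0%; background 13.5% of all protein-coding genes) had an mRNA at least 2-fold higher in mESCs on log2(TPM + 1), and 78 (6.60%, 5.26% to 8.17%; background 11.3%) at least 2-fold lower. The share higher was 23.8% for the genes nearest to mESC-only peaks without Ctr9, 23.5% for peaks of both lines with Ctr9 and 16.1% for those without. The median log2 ratio was 0.81 (0.73 to 0.92) for genes of members and 0.11 for those of mESC-only peaks without Ctr9. These shares are not matched for distance. Over 100 kb from the nearest start lay 33.3% of mESC-only peaks without Ctr9 and 9.84% of members. Nor are they matched for level, since 86.9% of genes of members and 51.3% of all protein-coding genes reached 1 TPM in mESCs. The rule itself asks for a region without NIH3T3 H3K27ac, which both mESC-only classes share. With RNA from whole cultures, fewer cells with a transcript and less of it per cell cannot be told apart.

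In level, genes of members had a median of 20.4 TPM in mESCs and 7.62 TPM in NIH3T3 cells, and those of mESC-only peaks without Ctr9 4.62 and 2.70 TPM. Many genes were near peaks of both classes. For the 558 genes with members only, 45.2% were at least 2-fold higher in mESCs, for the 623 with both kinds 45.1%, and for the 3560 with only mESC-only peaks without Ctr9 20.1%. NIH3T3 H3K27ac was found within 1 kb of the start of 723 genes of members (61.2%, 58.4% to 64.0%; background 44.7%), so most of these genes had an acetylated start in fibroblasts although the members did not.

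The share of nearest genes at least 2-fold higher in mESCs varied with distance, with the number of members and with RNAPII. It was 88 of 119 genes (73.9%, 65.1% to 81.6%) for members within 1 kb of the start, 56.9% for members at 1 to 10 kb, 43.4% at 10 to 100 kb and 26.1% (19.1% to 34.1%) over 100 kb. In the same distance groups, the genes of mESC-only peaks without Ctr9 had 64.2% (59.1% to 69.0%), 34.4%, 23.7% and 13.6% (11.8% to 15.5%), and the intervals of both classes overlapped within 1 kb. NIH3T3 H3K27ac was present at the start of 25.2% of the genes with a member within 1 kb, where the rule itself bears on the start, and of 62.1%, 65.6% and 56.3% of those in the farther groups. The share of genes at least 2-fold higher in mESCs was 41.7% for genes with members at 1 locus, 50.0% at 2 loci and 69.9% (58.8% to 79.5%) at 3 or more. Genes with at least 1 member that carried Ser5p had 53.5% (48.9% to 58.0%) and those without 39.2% (35.6% to 43.0%). Genes with a member in a super enhancer had 70.5% (62.2% to 77.9% of 139 genes). Genes enter more than 1 distance group when their members do.

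**Figure D5:**
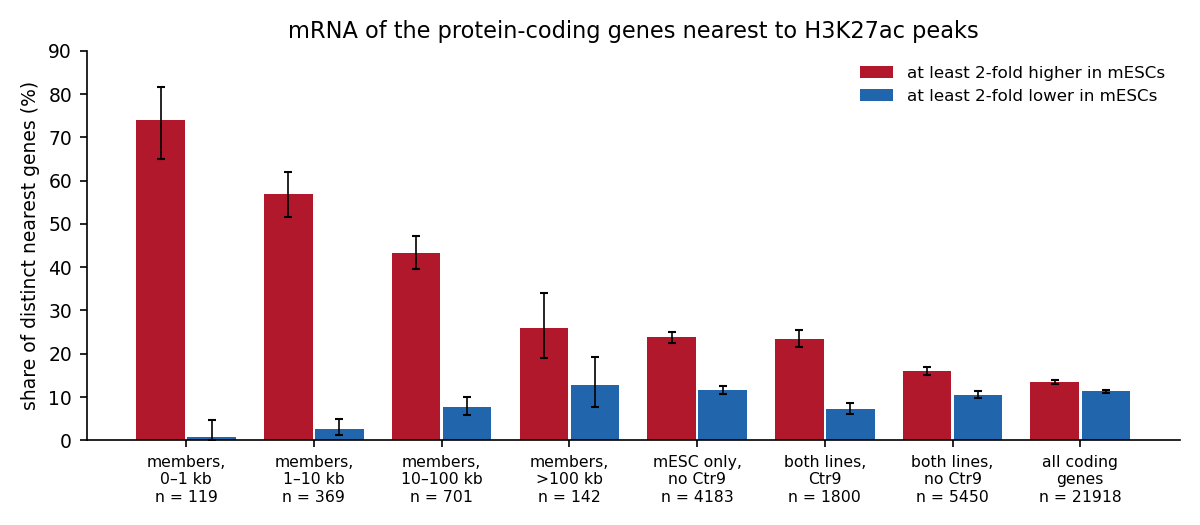
Share of distinct nearest protein-coding genes (y axis, %) with mRNA at least 2-fold higher or lower in mESCs on log2(TPM + 1), for members by distance from the start and for the other classes of peaks (x axis, with the number of genes), with 95% exact Clopper-Pearson intervals. The share higher is 73.9% for members within 1 kb and 26.1% for those over 100 kb, beside 13.5% of all protein-coding genes.

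The highest mRNAs among these genes were Eef1a1 (10124 TPM in mESCs and 8791 TPM in NIH3T3 cells), a translation elongation factor, Ptma, Hsp90aa1 and Rps29, of which Hsp90aa1, a chaperone, differed the most, with a log2 ratio of 2.56. Of the top 10 by TPM, 7 had log2 ratios between −0.13 and 0.56. The nearest gene can be far away, as for Rps29, whose members were 596341 to 600468 bp from the start. The highest log2 ratios were 11.07 for Dppa5a, 10.45 for Pou5f1, 10.04 for Hspb1 (a small heat shock protein), 9.62 for Tdgf1 and 8.65 for Tdh (threonine dehydrogenase). The lowest were −9.75 for Gm10260, −5.06 for Foxf2, −4.30 for Matn2, −4.29 for Epb41l3 and −4.22 for Lhfp. Foxf2, a forkhead factor, stood at 0.04 TPM in mESCs, and its 2 members, over 55 kb from the start, carried Ctr9 with a fold enrichment of 21.4, Ser5p and Ser2p.

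Within 150 bp of the H3K27ac summit, members had a median GC content of 49.5% and 1.66 CG dinucleotides per 100 bases, against 51.2% and 1.99 in mESC-only peaks without Ctr9 and 63.5% and 7.64 in peaks of both lines with Ctr9. The 142 members at gene starts had 56.5% and 3.99, as against 65.1% and 8.31 in all mESC H3K27ac peaks at gene starts. Repeat-masked bases made up a median of 14.0% in members and 36.5% in mESC-only peaks without Ctr9. At least 50% of the bases were masked in 377 members (17.6%, 16.0% to 19.2%) and in 3579 of 8117 mESC-only peaks without Ctr9 (44.1%). The part of repeats in the differences between these classes was not tested beyond the members: in members under 50% masked, the share with Ser5p was 37.7%.

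Short motifs were counted on both strands within 150 bp of the summit in 2145 members. The GC box (GGGCGG, bound by Sp and Klf factors) was found in 165 (7.69%, 6.60% to 8.90%; background 34.1%), and in 23.0% of mESC-only peaks without Ctr9. The AP-1 motif (TGANTCA) was found in 202 (9.42%, 8.21% to 10.7%; background 6.49%) and in 7.82% of mESC-only peaks without Ctr9. Here N is any base, so words with A, C, G or T at the centre were pooled. They were not counted apart, and whether each is an AP-1 site was not tested. The TATA motif (TATAAA) was found in 245 (11.4%, 10.1% to 12.8%; background 7.09%) and in 9.54%. The Klf motif (GGGTGTGG) was found in 58 (2.70%, 2.06% to 3.48%; background 2.37%), where the interval holds the background and the order turned with 100 bp on each side (1.26% against 1.36%), and the STAT motif (TTCCNGGAA) in 32 (1.49%; background 0.963%). These backgrounds pool gene starts with other places. Over 1 kb from gene starts, the AP-1 motif was found in 198 of 2003 members (9.89%, 8.61% to 11.3%), against 8.36% of all mESC H3K27ac peaks there. The GC box was found in 123 of these members (6.14%, 5.13% to 7.28%), against 22.0%, and the TATA motif in 237 (11.8%, 10.4% to 13.3%), against 9.66%. At gene starts, the AP-1 motif was found in 4 of 142 members (2.82%, 0.773% to 7.06%), against 3.71%, the GC box in 42 (29.6%, 22.2% to 37.8%), against 52.0%, and the TATA motif in 8 (5.63%, 2.46% to 10.8%), against 3.26%, and the intervals of AP-1 and TATA hold those values.

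The motifs of the pluripotency factors were rare. The Esrrb motif (TCAAGGTCA) was found in 18 members (0.839%, 0.498% to 1.32%; background 0.668%), the octamer (ATGCAAAT) in 14 (0.653%, 0.357% to 1.09%; background 0.798%) and the Sox-Oct composite (TTGTNATGC) in 13 (0.606%, 0.323% to 1.03%; background 0.404%). The composite and the octamer share bases where they overlap. The CRE motif (TGACGTCA) was found in 3 (0.140%, 0.0289% to 0.408%; background 0.487%) and in 0.162% of mESC-only peaks without Ctr9. These backgrounds too pool gene starts, where few members lie, with other places. Exact words of this length miss variants of a site, and a match is not a bound site.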

How the data were processed

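Peak lists of 7 ChIP-seq libraries and transcript tables of 2 RNA-seq libraries were used, and 3 input libraries were not used here. Per the submitters' processing notes and the study's methods, the authors aligned reads to mm10 with Bowtie2 2.3.5.1, filtered out blacklisted regions and ran MACS2 2.2.6, keeping peaks that passed a q-value of 0.01. Whether the input libraries served as controls is not given in the sources used here. The deposited score is a whole number made from the −log10 q-value, the deposited fold enrichment is a ratio over the local background, and p-values and q-values were deposited as −log10 at the summit. The authors quantified transcripts with kallisto 0.46.1 and deposited estimated counts and TPM values per transcript. The score, the −log10 p-values and the estimated counts served for checks and depth only.

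Overlaps of 1 bp or more, distances, shares and intervals were computed with SciPy 1.17.1, pysam 0.24.0, NumPy 2.4.6 and pandas 2.3.3 under Python 3.11.15, and figures with Matplotlib 3.10.9. The code was tested on simulated data (500 simulated intervals), where 7 of 7 checks passed. Genes came from GENCODE M21, in which 21918 of 21951 protein-coding genes matched the RNA tables, and sequences from RefSeq GRCm38.p6. The nearest gene was the protein-coding gene whose body held the summit, or else the one with the nearest start. A gene took its highest transcript, and ratios used log2(TPM + 1). The members and lists were chosen with earlier results of these data known. Regions named were the 10 members of highest H3K27ac and the 5 of highest Ctr9 fold enrichment, the 5 widest, the 5 of highest H3K27ac fold enrichment over 1 kb from gene starts with Ser5p, Ser2p and NELFA, and members at listed genes. Genes named were the 10 with the most members, the 10 of highest mESC TPM and the 5 highest and 5 lowest log2 ratios. Epha2 was named after its values were seen. One of the widest members is not reported here. Alternatives changed the q threshold, the overlap, the windows, the unit counted, the pseudocount and the gene assignment.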

Additional observations from a re-analysis of the deposited data

How the results depend on the processing

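The median log2 ratio of the nearest genes was above 0 under each alternative run for it. No paired analysis was possible because each group holds 1 library and no test was made. The number of members stayed within 1.5 times of 2148 under all 5 alternatives, from 1606 loci to 1985 peaks with no NIH3T3 H3K27ac peak within 1 kb. Of 65 values under alternatives, 31 stayed within the interval of the main value (or, for the number of members, within 1.5 times) and 34 moved outside it. The share of members at a gene start was 4.24% with a window of 500 bp, 10.7% with 2 kb, 11.2% with all genes of the annotation and 7.78% over loci. Asking for an overlap of 50% of the shorter peak gave 32.2% for Ser5p, 4.47% for Ser2p, 4.93% for NELFA and 3.86% for NIH3T3 Ctr9. Allowing a gap of 500 bp gave 45.1%, 6.98%, 10.8% and 6.47%. With a −log10 q of at least 5 in the overlapped list, Ser5p was at 33.1% and NELFA at 6.10%, and over loci NELFA was at 9.22%. Means instead of medians gave an H3K27ac fold enrichment of 3.67, a width of 504 bp and a distance between summits of 494 bp. Members with a −log10 q of at least 5 gave 3.37 and 449 bp, and Ctr9 peaks with that threshold a distance of 224 bp. The share of nearest genes at least 2-fold higher in mESCs was 51.1% with a pseudocount of 0.1 TPM, 51.1% for genes of at least 1 TPM in either line and 58.8% for members within 10 kb, and the median log2 ratio was 1.05, 1.04 and 1.46. With 100 bp on each side of the summit, the motif shares were 0.373% (Esrrb), 1.26% (Klf), 5.41% (GC box), 6.06% (AP-1), 0.793% (STAT), 0% (CRE) and 6.85% (TATA), in a shorter window. The backgrounds of all mESC H3K27ac peaks, recomputed after seeing the data, were 6.44% for NELFA with an overlap of 50%, 12.6% for NELFA with a gap of 500 bp, and 4.04% (AP-1), 4.25% (TATA) and 1.36% (Klf) with 100 bp, so that Klf motifs passed from above to below the background and the others named here kept their side. Backgrounds were not recomputed for the gene-start windows, the q threshold, loci or gene alternatives. The distance groups of mESC-only peaks without Ctr9 and the limit to members under 50% repeat-masked were chosen after seeing the data, and the latter left the shares with the 4 factors within their intervals. Each list rests on 1 library of unknown depth, so a region without a peak may lie below the threshold, and the NIH3T3 H3K27ac list, at 34241 peaks, is longer than that of mESCs.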
